A study of Rattus norvegicus with 59 samples.

Results

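The insulin-like growth factor (IGF) system was followed in kidney tissue from the Fawn-Hooded Hypertensive (FHH) rat, an inbred strain that develops hypertension and kidney damage. Its members were taken by name: the ligands Igf1 and Igf2, the receptor Igf1r and the binding proteins Igfbp1, Igfbp2, Igfbp3, Igfbp4, Igfbp5 and Igfbp6. The annotation of the array named 9 probes for 8 of these 9 genes, out of 22523 probes and 13337 named genes. No probe was named for Igf1, which was not analysed here. Igfbp4 had 2 probes, and one of them was above background on 0 of 59 arrays, so the other represents the gene.

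All 59 arrays came from whole kidneys of FHH rats. In the PDTC groups, pyrrolidine dithiocarbamate, an inhibitor of the transcription factor NF-kB, was given to the mothers in drinking water at 150 mg/L, starting 2 weeks ahead of birth and ending 4 weeks after it. Untreated rats of the same strain were the controls. At 2 days of age there were 4 male and 4 female PDTC rats, against 5 male and 5 female untreated rats. At 2 weeks there were 4 male and 6 female PDTC rats, against 6 male and 5 female untreated rats. Each of the 4 adult groups held 5 rats, the males 36 and the females 42 weeks old, so adult sex and age in weeks cannot be told apart. The adults' exposure had ended long before sampling, whereas both pup ages were sampled while it lasted. The labels did not give the litter of any pup, and pups of 1 treated mother may share their exposure, so p-values measure the spread between these rats.

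IGF1 and IGF2 act through the IGF1 receptor, a tyrosine kinase that drives growth and survival through the PI3K-AKT and MAPK cascades. The binding proteins hold the ligands in blood and tissue, prolong their life there and are cut by proteases that set the ligands free. In rodents Igf2 is an imprinted gene, transcribed mainly from the paternal copy, with its highest levels before birth. The rat kidney goes on forming nephrons for some days after birth, so the youngest rats were sampled with nephron formation still under way.

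The stretches upstream of the start sites are shown for the genes that moved most with age, Igf2 and Igfbp1, and for Igfbp3, the neighbour of Igfbp1 on chromosome 14, which together with Igf2 had the lowest unadjusted p-values for PDTC at 2 days. Each is the 250 bases before an annotated start in RefSeq (build GRCr8), of which Igf2 has 2. Capitals mark matches, on either strand, to CAAAACA, the core of the insulin response element bound by FOXO factors, or to GGGNNNNNCC, a loose form of the site bound by NF-kB. The sequences are from chr1:207253981-207254230 and chr1:207250476-207250725 (Igf2, minus strand), chr14:86261027-86261276 (Igfbp1, plus strand) and chr14:86277945-86278194 (Igfbp3, minus strand).
Igf2, first start: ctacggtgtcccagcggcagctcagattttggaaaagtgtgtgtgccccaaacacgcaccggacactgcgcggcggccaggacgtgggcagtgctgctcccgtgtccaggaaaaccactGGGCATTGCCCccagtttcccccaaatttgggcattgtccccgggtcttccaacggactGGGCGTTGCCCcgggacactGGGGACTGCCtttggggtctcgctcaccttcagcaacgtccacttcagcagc
Igf2, second start: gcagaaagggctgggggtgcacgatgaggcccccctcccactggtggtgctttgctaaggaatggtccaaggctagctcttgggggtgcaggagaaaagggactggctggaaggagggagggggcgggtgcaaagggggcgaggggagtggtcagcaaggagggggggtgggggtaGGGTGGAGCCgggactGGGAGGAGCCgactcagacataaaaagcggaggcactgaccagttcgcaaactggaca
Igfbp1: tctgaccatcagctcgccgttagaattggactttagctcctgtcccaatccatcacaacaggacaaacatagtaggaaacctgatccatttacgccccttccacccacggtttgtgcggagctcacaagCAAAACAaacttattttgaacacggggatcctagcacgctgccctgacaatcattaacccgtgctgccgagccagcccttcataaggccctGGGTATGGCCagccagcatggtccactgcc
Igfbp3: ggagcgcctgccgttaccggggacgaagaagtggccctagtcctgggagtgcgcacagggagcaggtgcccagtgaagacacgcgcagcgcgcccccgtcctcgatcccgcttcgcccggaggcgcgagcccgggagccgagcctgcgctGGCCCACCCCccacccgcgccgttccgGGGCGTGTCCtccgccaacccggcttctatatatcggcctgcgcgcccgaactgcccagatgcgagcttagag

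The CAAAACA core lay 121 to 115 bases before the start of Igfbp1, a gene known to be repressed by insulin through this element. Among the 9 members it was also present in Igf1, and in no other within this window, against 5.46% of the 33469 promoters in the table. The loose NF-kB form was present in 7 of the 9 members, all but Igf1 and Igfbp5, against 42.3% of all promoters. GC content was 62.4% and 63.6% for the Igf2 starts, 52.8% for Igfbp1 and 71.6% for Igfbp3, against a median of 51.2% over all promoters. It was 79.6% for Igf1r, 68.8% for Igfbp4, 64% for Igfbp2 and 54.8% for Igfbp6, but 46.8% for Igf1 and 51.6% for Igfbp5. The loose form is itself rich in G and C, and its share among promoters of like GC content was not tested. The 7 of 9 is also a count of genes, set against a share of promoters. A match to these letters describes the sequence and does not show that a factor binds there. Igfbp1 and Igfbp3 are neighbours on chromosome 14, Igfbp2 and Igfbp5 are neighbours on chromosome 9, and Igf2 and Igf1r both lie on chromosome 1.

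Array signals were corrected for background, quantile-normalized over all 59 arrays and put on the log2 scale, which carries all levels below; 1 unit is a 2-fold difference. The level of a probe says nothing about the level of another gene's probe. Between 9139 and 12488 probes were above background on an array, and the median array had 11936 of them for the 2-day rats, 12121 for the 2-week rats and 10188 for the adults. Igf2, Igf1r, Igfbp1, Igfbp2, Igfbp3 and Igfbp6 were above background on all 59 arrays, Igfbp5 on 36 and Igfbp4 on 34. Slides 1 to 6 carried pups and slides 7 to 10 carried adults, with a single exception: untreated male 6 of the 2-week group was on slide 8. The step between pups and adults therefore rests on that rat wherever slide and age are to be told apart. Differences were tested with limma and adjusted over all probes tested, and a gene is said to have risen or fallen only at an adjusted p under 0.05.

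**Figure D1:**
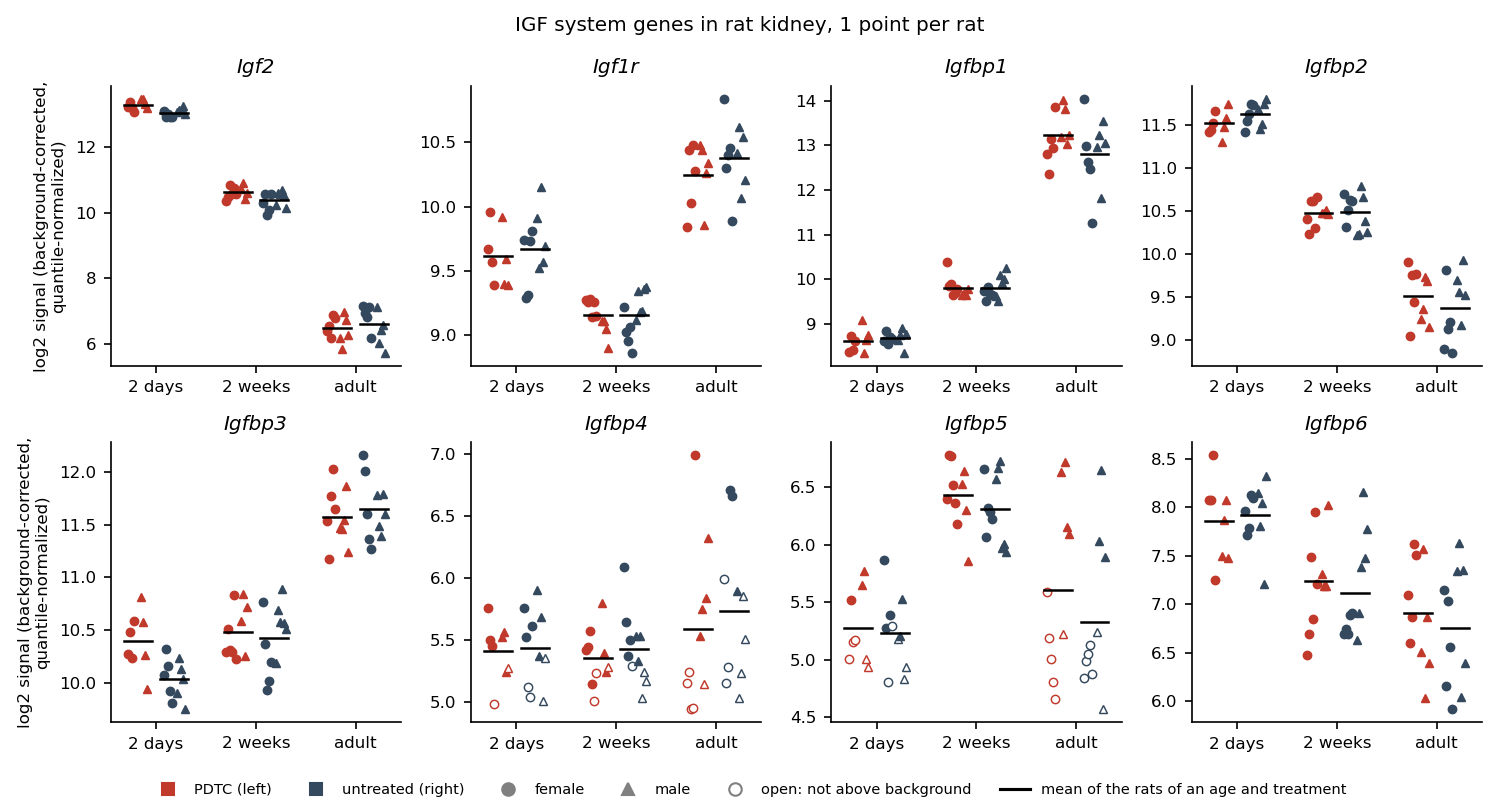
Log2 signal (vertical axis, background-corrected and quantile-normalized) of the 8 IGF system genes in each rat at 2 days, 2 weeks and adult age (horizontal axis), PDTC rats left and untreated rats right, circles female and triangles male. Bars are the mean of an age and treatment, and open symbols are values not above background. Igf2 fell at each age without overlap, Igfbp1 rose, and the untreated Igfbp5 median was 5.24, 6.28 and 5.09 at the 3 ages.

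With age, members of the kidney's IGF system moved in opposite directions. Igf2 and Igfbp2 fell at both steps while Igfbp1 rose at both, in PDTC and in untreated rats. In PDTC rats 6 of the 8 members passed the test at 2 weeks against 2 days, 6 in adults against 2 weeks and 6 in adults against 2 days, against 38.4%, 67.7% and 69.9% of all probes. The median difference over the 8 members was -0.26, -0.07 and 0.25 in these 3 comparisons, against 0 over all probes tested. Each of these members moved in untreated rats in the same direction. In untreated rats at 2 weeks against 2 days, 3 of the 8 members were higher and 4 lower, against 16.9% of all probes higher and 20.9% lower. In untreated adults against 2 weeks, 3 were higher and 3 lower, against 31.7% and 32.3% of all probes. In untreated adults against 2 days, 3 were again higher and 3 lower, against 35.1% and 36.3% of all probes. The adult counts of both treatments lay near the shares of all probes. The untreated members' medians were -0.26, -0.02 and 0.19, against -0.01, 0 and 0 over all probes tested. With arrays scaled to 1 median instead of quantile-normalized, the adult split moved down for members and for all probes alike. Against 2 weeks it was 1 member higher and 4 lower in both treatments, beside 13.2% and 63.6% of all probes in PDTC rats and 12.1% and 57.8% in untreated rats. Against 2 days it was 2 higher and 3 lower in both treatments, beside 15.2% and 59.8% of all probes in PDTC rats and 15.6% and 56.3% in untreated rats. The early step gave 2 and 4 in both treatments, beside 13.9% and 13.4% of all probes in PDTC rats and 10.3% and 10% in untreated rats.

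Igf2, the fetal growth factor, had the largest change of the 8. In PDTC rats its log2 signal was 13.08 to 13.47 (median 13.26) in the 8 kidneys at 2 days, 10.34 to 10.91 (median 10.60) in the 10 at 2 weeks and 5.85 to 6.98 (median 6.47) in the 10 adults. It was 12.90 to 13.24 (median 13.04) in the 10 untreated 2-day kidneys, 9.94 to 10.70 (median 10.55) in the 11 untreated 2-week kidneys and 5.72 to 7.15 (median 6.70) in the 10 untreated adult kidneys. The 3 ages did not overlap in either treatment, and every adult lay below every pup. At 2 weeks against 2 days Igf2 fell by 2.66 ± 0.081 (SE) in PDTC rats (limma adjusted p = 7.43e-14) and by 2.66 ± 0.088 in untreated rats, 6.32-fold, with an adjusted p of 2.08e-15. Among the 6924 probes that were lower in untreated rats, the size of this difference ranked 10.

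From 2 weeks on the fall continued. In adults against 2 weeks Igf2 fell by 4.15 ± 0.13 in PDTC rats (17.8-fold, adjusted p = 7.41e-16) and fell by 3.78 ± 0.16 in untreated rats (13.7-fold, adjusted p = 1.21e-14). Over the whole span, adults against 2 days, it fell by 6.81 ± 0.14 in PDTC rats and by 6.44 ± 0.15 in untreated rats, the second an 86.7-fold difference. In both treatments it ranked 2 among all lower probes, of 6607 in PDTC rats and of 6568 in untreated rats. The unnormalized adult signals were 82.5 to 123 in PDTC rats, on arrays with a background of 59.9 to 82.2, and 84 to 130.9 in untreated rats, with a background of 66.5 to 80.4. The size of the adult difference from 2 days changed with the processing: without background correction it was -5.83 in PDTC and -5.52 in untreated rats, and with arrays scaled to 1 median -7.47 and -7.07. Under that scaling the median of all probes was itself -0.62 and -0.53. Fewer cells that express Igf2 and less Igf2 RNA per cell cannot be told apart in whole kidney.

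The 2 pup ages shared slides, and within each of the 6 slides that held both ages, treatments pooled, Igf2 was lower at 2 weeks, with differences of -2.82 to -2.37. With slide as a term the untreated adult step was -2.89 (adjusted p = 0.00251), a value that rests on the single 2-week rat on an adult slide. Markers of several cell types moved with age beside Igf2. All 7 tested markers of nephron progenitors and ureteric bud fell in untreated rats at 2 weeks against 2 days (median difference -1.0), and 6 of 6 proliferation markers fell at both steps (medians -0.61 and -2.99). All 8 markers of stroma fell in untreated adults against 2 weeks, with a median of -2.00. Their summed log2 level was 14.52 to 15.35 at 2 days, 14.32 to 15.49 at 2 weeks and 12.44 to 13.79 in adults, and 5 to 8 of the 8 were above background on an adult array. With arrays scaled to 1 median, 6 of 7 progenitor and ureteric bud and 4 of 6 proliferation markers fell at 2 weeks. Other lists rose in untreated rats. At 2 weeks 9 of 11 proximal tubule and 5 of 5 fat markers rose (medians 0.78 and 1.67). In adults against 2 weeks 6 of 6 leukocyte markers rose (median 1.88), while 4 of 5 fat markers fell (median -1.71). The part of these cell types in the Igf2 values was not tested.

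The receptor gene Igf1r was lowest at 2 weeks. In PDTC rats its log2 signal was 9.39 to 9.96 (median 9.58) at 2 days, 8.90 to 9.28 (median 9.15) at 2 weeks and 9.84 to 10.48 (median 10.31) as adults. Untreated rats had 9.29 to 10.15 (median 9.71) at 2 days, 8.86 to 9.37 (median 9.18) at 2 weeks and 9.89 to 10.84 (median 10.41) in adults. Every 2-week rat lay below every adult, whereas the 2-day and adult ranges overlapped in both treatments. At 2 weeks against 2 days Igf1r fell by 0.48 ± 0.083 in PDTC rats (adjusted p = 0.000161) and by 0.53 ± 0.089 in untreated rats (adjusted p = 6.07e-05). On the 6 shared slides the difference was -0.65 to -0.10.

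In adults Igf1r was higher than at 2 weeks, by 1.11 ± 0.095 in PDTC rats (adjusted p = 3.42e-09) and 1.23 ± 0.11 in untreated rats (adjusted p = 2.18e-09). Against 2 days the adult level was 0.63 ± 0.12 higher in PDTC and 0.70 ± 0.12 higher in untreated rats (adjusted p = 0.000179 and 4.1e-05), but both of these turn with the scaling. When arrays were scaled to 1 median instead of quantile-normalized, the median of all probes in adults moved to between -0.66 and -0.53 against either pup age. Igf1r was then -0.25 in PDTC and -0.09 in untreated adults against 2 days (adjusted p = 0.218 and 0.65), which is 0.37 and 0.44 above that median. Against 2 weeks it was 0.17 and 0.39 (adjusted p = 0.327 and 0.0672), or 0.83 and 0.96 above the median.

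Igfbp1, a binding protein that insulin represses and fasting and stress induce, rose the most. In PDTC rats its log2 signal was 8.35 to 9.08 (median 8.61) at 2 days, 9.64 to 10.39 (median 9.73) at 2 weeks and 12.35 to 14.03 (median 13.18) in adults. The untreated values were 8.34 to 8.91 (median 8.67) at 2 days, 9.51 to 10.24 (median 9.73) at 2 weeks and 11.26 to 14.05 (median 12.97) in adults. The ages did not overlap in either treatment, and the adults spread far more widely than the pups, with an SD of 0.53 in PDTC and 0.81 in untreated adults against 0.16 to 0.24 in the pups. The untreated adult females alone held both the lowest and the highest untreated adult value, 11.26 and 14.05.

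At 2 weeks against 2 days Igfbp1 rose by 1.17 ± 0.11 in PDTC rats (adjusted p = 1.08e-07) and 1.11 ± 0.089 in untreated rats (adjusted p = 2.61e-09). Within the 6 shared slides the difference was 0.87 to 1.42. In adults against 2 weeks it rose by 3.47 ± 0.16 in PDTC rats, 11.1-fold, and by 3.02 ± 0.24 in untreated rats, 8.10-fold (adjusted p = 4.24e-13 and 6.86e-10). Over the whole span the rise was 24.9-fold in PDTC rats and 17.5-fold in untreated rats, which ranked 22 of 6543 and 35 of 6511 among the probes that were higher. With slide as a term the untreated adult step was 3.38 (adjusted p = 0.0173).

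Igfbp3, the main carrier of IGFs in serum, was higher in adults. In PDTC rats its log2 signal was 9.94 to 10.81 (median 10.37) at 2 days, 10.23 to 10.84 (median 10.41) at 2 weeks and 11.17 to 12.03 (median 11.53) in adults. In untreated rats it was 9.75 to 10.32 (median 10.06) at 2 days, 9.93 to 10.89 (median 10.51) at 2 weeks and 11.27 to 12.16 (median 11.60) in adults. The adults lay above all pups in both treatments, whereas the 2 pup ages overlapped. At 2 weeks the difference from 2 days was 0.11 ± 0.12 in PDTC rats (adjusted p = 0.524) and 0.38 ± 0.11 in untreated rats (adjusted p = 0.00642), the second of which was 0.43 (adjusted p = 0.133) with arrays scaled to 1 median. The PDTC and untreated changes were not shown to differ: the test of the difference between them gave -0.27 with an adjusted p of 1.

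In adults against 2 weeks Igfbp3 rose by 1.07 ± 0.12 in PDTC and 1.23 ± 0.13 in untreated rats (adjusted p = 1.14e-07 and 5.41e-08). With arrays scaled to 1 median these were 0.29 and 0.51 (adjusted p = 0.068 and 0.0519), 0.95 and 1.08 above the median of all probes. Against 2 days Igfbp3 rose by 1.18 in PDTC and 1.61 in untreated adults (2.26-fold and 3.06-fold), and by 0.45 and 0.93 with arrays scaled to 1 median (adjusted p = 0.0191 and 0.000514).

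Igfbp2, a binding protein abundant in fetal tissues, fell at each step. PDTC rats had log2 signals of 11.31 to 11.75 (median 11.51) at 2 days, 10.23 to 10.66 (median 10.48) at 2 weeks and 9.05 to 9.91 (median 9.57) in adults. Untreated rats ranged over 11.42 to 11.81 (median 11.66) at 2 days, 10.22 to 10.79 (median 10.51) at 2 weeks and 8.85 to 9.93 (median 9.37) in adults. No 2 ages overlapped in either treatment. At 2 weeks against 2 days it fell by 1.04 ± 0.074 in PDTC rats and 1.14 ± 0.084 in untreated rats, and in adults against 2 weeks by 0.97 ± 0.11 and 1.11 ± 0.13. The largest of these 4 adjusted p-values was 2.02e-07. On the 6 shared slides the early difference was -1.21 to -0.95, and with slide as a term the untreated adult step was -0.95 (adjusted p = 0.215). With arrays scaled to 1 median the adult step was -1.95 in PDTC and -2.03 in untreated rats, or -1.29 and -1.46 against the median of all probes. Its chromosomal neighbour Igfbp5 did not follow this course.

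Igfbp5, a binding protein that attaches to the extracellular matrix, was highest at 2 weeks. In PDTC rats its log2 signal was 4.94 to 5.77 (median 5.16) at 2 days, 5.86 to 6.78 (median 6.46) at 2 weeks and 4.66 to 6.72 (median 5.41) in adults. In untreated rats it was 4.81 to 5.87 (median 5.24) at 2 days, 5.94 to 6.73 (median 6.28) at 2 weeks and 4.57 to 6.65 (median 5.09) in adults. It was above background in all 21 rats at 2 weeks, but in 3 of 8 PDTC and 5 of 10 untreated rats at 2 days, and in 4 of 10 PDTC and 3 of 10 untreated adults. Folds at the other ages therefore rest partly on values at the background. Igfbp5 rose by 1.14 ± 0.14 in PDTC and 1.08 ± 0.13 in untreated rats at 2 weeks against 2 days (adjusted p = 3.29e-06 and 1.41e-06), by 0.91 to 1.43 within the shared slides. In adults against 2 weeks it fell by 0.81 ± 0.17 in PDTC and 0.99 ± 0.19 in untreated rats (adjusted p = 0.000312 and 0.000104). Without background correction the rise was 0.49 in PDTC and 0.46 in untreated rats and the adult step -0.36 and -0.43, all past the threshold. The adult step was -0.85 (adjusted p = 0.40) in untreated rats with slide as a term. By sex, adult PDTC females averaged 5.05 and 2-week PDTC females 6.50, adult PDTC males 6.16 and 2-week PDTC males 6.33, and this step was not tested within a sex.

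Igfbp6, which prefers IGF2 over IGF1, was lower after 2 days. Log2 signals of PDTC rats were 7.25 to 8.54 (median 7.97) at 2 days, 6.48 to 8.02 (median 7.20) at 2 weeks and 6.04 to 7.62 (median 6.87) in adults. The untreated ranges were 7.21 to 8.32 (median 8.0) at 2 days, 6.63 to 8.16 (median 6.91) at 2 weeks and 5.92 to 7.63 (median 6.80) in adults, and all ages overlapped. At 2 weeks against 2 days it fell by 0.59 ± 0.20 in PDTC rats (adjusted p = 0.0288) and by 0.83 ± 0.16 in untreated rats (adjusted p = 0.000212). Within the 6 shared slides the difference ran from -1.29 to 0.44 and was lower on 5. In PDTC rats 6 of the 18 rats, left out singly, each took the adjusted p above 0.05, to between 0.051 and 0.0706, and testing dim probes as well took it to 0.0548. The adult step was -0.36 in PDTC and -0.33 in untreated rats (adjusted p = 0.134 and 0.175), and -1.25 and -1.0 with arrays scaled to 1 median (adjusted p = 4.79e-07 and 1.9e-05). Against the median of all probes, which that scaling lowered, the last 2 values are -0.59 and -0.43.

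Igfbp4, which blocks IGF action until the protease PAPP-A cuts it, stayed close to background. Its log2 signal lay between 4.94 and 6.99 over all 59 rats, and 34 of them were above background. The age differences ran from -0.05 to 0.29 over the 6 comparisons, and none passed the test. The 95% interval of the untreated adult difference from 2 days was -0.12 to 0.71.

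**Figure D2:**
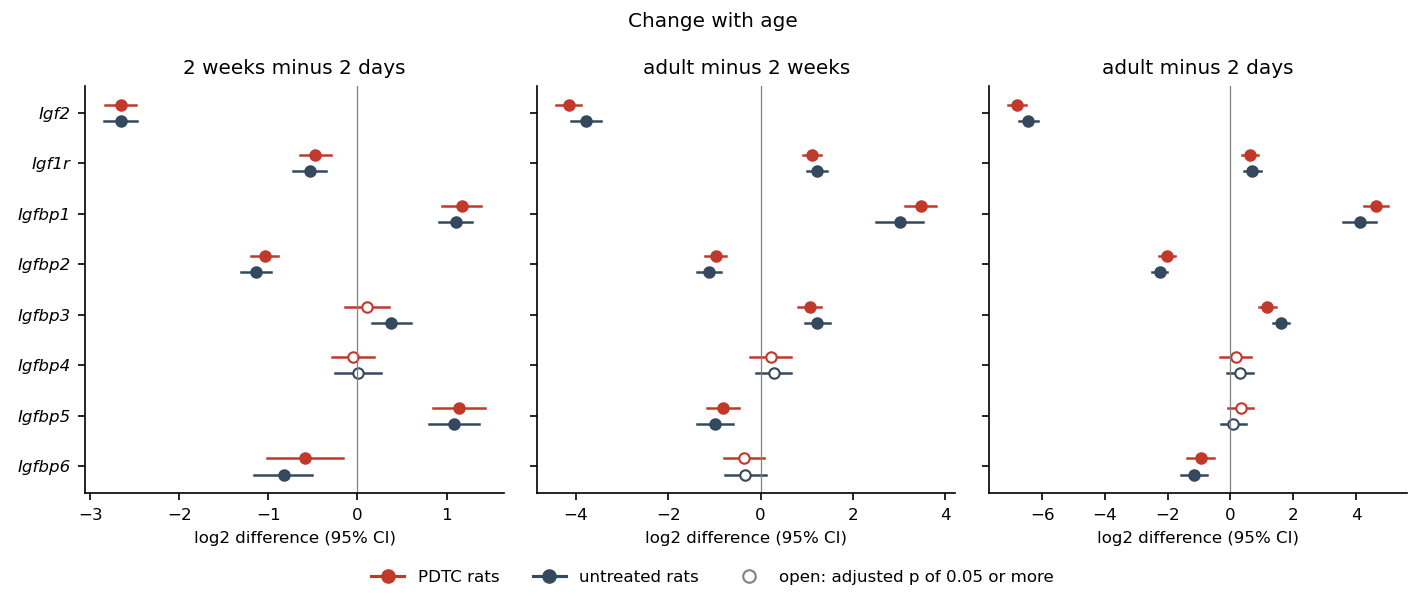
Log2 difference between ages (horizontal axis, with 95% interval) for each of the 8 genes, PDTC rats in red above untreated rats in blue, filled where the adjusted p is under 0.05. Igf2 stands at -6.81 and -6.44 and Igfbp1 at 4.64 and 4.13 in adults against 2 days, while Igf1r at 0.63 and 0.70 turns to -0.25 and -0.09 with arrays scaled to 1 median.

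Around the members, 5 lists of genes of the IGF system were followed in untreated rats. The first held related receptors, ligands and carriers, of which 10 of 12 genes had a probe. Over all probes 16.9% rose and 20.9% fell at 2 weeks against 2 days, 31.7% and 32.3% in adults against 2 weeks, and 35.1% and 36.3% in adults against 2 days, and each list is to be read beside these shares. At 2 weeks against 2 days 5 of 7 tested genes of the first list rose and 0 fell (median 0.48), and in adults against 2 weeks 4 of 8 rose and 1 fell (median 0.65). Prlr, the prolactin receptor, rose by 0.53 ± 0.15 and then 1.35 ± 0.22. Igfbpl1, an IGFBP-like protein, was 0.90 ± 0.091 higher at 2 weeks and 1.74 ± 0.14 higher in adults than at 2 days. Igfbp7, a related protein with low affinity for IGFs, rose by 0.75 ± 0.088 at 2 weeks and fell by 0.73 ± 0.12 in adults. With arrays scaled to 1 median the adult step of this list became 2 higher and 2 lower, beside 12.1% and 57.8% of all probes. That scaling moved the median of all probes to -0.57 in untreated adults against 2 weeks and -0.53 against 2 days. Scaled adult values of all 5 lists are to be read beside these medians. Under that scaling the adult step of Prlr was 0.43 (adjusted p = 0.049) and that of Igfbp7 -1.18, and Igfbpl1 was 0.99 above the 2-day level in adults.

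The proteases that cut binding proteins, with their inhibitors, had 12 of 14 genes on the array. At 2 weeks 6 of 10 tested genes rose and 1 fell against 2 days, and in adults 4 rose and 4 fell against 2 weeks. The adult counts became 1 and 6 with arrays scaled to 1 median, beside 12.1% and 57.8% of all probes. The adult counts before scaling lay near the share of all probes in each direction. Klk1, tissue kallikrein, was 3.60 ± 0.096 higher in adults than at 2 days. Htra1, a secreted serine protease, was 2.14 ± 0.095 higher over the same span, and 1.39 with arrays scaled to 1 median. Its relative Htra3 fell at least 4.54-fold in adults against 2 weeks (limma adjusted p = 1.12e-15), a bound, since it was above background on 0 of 10 untreated adult arrays and all 11 at 2 weeks. Each bound sets the bright mean against the lowest signal above background on the dim arrays. Mmp9, a gelatinase, rose by 1.2 ± 0.13 at 2 weeks and fell by 2.30 ± 0.17 in adults. Pappa, which encodes PAPP-A, did likewise, by 1.12 ± 0.29 and 0.68 ± 0.29, the adult step being -1.42 with arrays scaled to 1 median.

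In signalling below the receptor, 19 of 30 genes had a probe. At 2 weeks 3 of 17 tested genes rose and 3 fell against 2 days (median -0.04), close to the shares of all probes, and in adults 4 rose and 9 fell against 2 weeks (median -0.59). Eif4ebp1, the translation repressor that mTOR inactivates, fell by 0.79 ± 0.074 at 2 weeks and was 1.47 ± 0.13 below the 2-day level in adults, a difference of -2.32 with arrays scaled to 1 median. Shc1, an adaptor to the MAPK branch, fell by 1.56 ± 0.31 in adults against 2 weeks. Mtor itself was 0.70 ± 0.10 higher in adults than at 2 weeks, but -0.18 with arrays scaled to 1 median, which is 0.39 above the median of all probes. Under that scaling the list stood at 1 higher and 14 lower, beside 12.1% and 57.8% of all probes.

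All 8 genes of the growth hormone axis had a probe. In adults 4 of 6 tested genes rose and 1 fell against 2 weeks (median 0.81), which became 2 and 2 with arrays scaled to 1 median, beside 12.1% and 57.8% of all probes. Ghr, the growth hormone receptor, was 1.35 ± 0.18 higher in adults than at 2 days, but 0.50 with arrays scaled to 1 median (adjusted p = 0.0368), and its adult step from 2 weeks was then 0.03 (adjusted p = 0.918). These scaled values lie 1.03 and 0.60 above the median of all probes. Of the feedback inhibitors, Cish rose by 1.46 ± 0.29 in adults against 2 weeks, or by 0.88 with arrays scaled to 1 median. Socs2 fell by 2.38 ± 0.13, a value that rests mostly on dim adult signals, since 1 of 10 adults was above background.

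The regulators of Igf2 and the imprinted growth genes had 8 of 13 genes on the array. None rose, and 4 of 7 tested genes fell at 2 weeks against 2 days (median -0.44), 3 of 4 in adults against 2 weeks (median -1.15) and 6 of 7 in adults against 2 days (median -1.61). With arrays scaled to 1 median these were 4, 4 and 6, beside 57.8% of all probes lower in adults against 2 weeks and 56.3% against 2 days. Plagl1, an imprinted zinc-finger gene that activates Igf2 in mouse, averaged 10.06 at 2 days, 8.62 at 2 weeks and 7.20 in adults. It fell by 1.44 ± 0.095 at 2 weeks and fell by 1.41 ± 0.17 in adults (adjusted p = 9.68e-11 and 2.72e-07), the adult step being -2.19 with arrays scaled to 1 median. Cdkn1c, an imprinted cell-cycle inhibitor, fell by 2.79 ± 0.22 in adults against 2 weeks. Dlk1, an imprinted membrane protein, fell at least 1.88-fold at 2 weeks, and Grb10, an imprinted adaptor that restrains the receptor, at least 1.86-fold in adults against 2 days (limma adjusted p = 1.99e-09 and 2.56e-13). These are bounds, since neither was above background in any untreated rat of the older group.

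**Figure D3:**
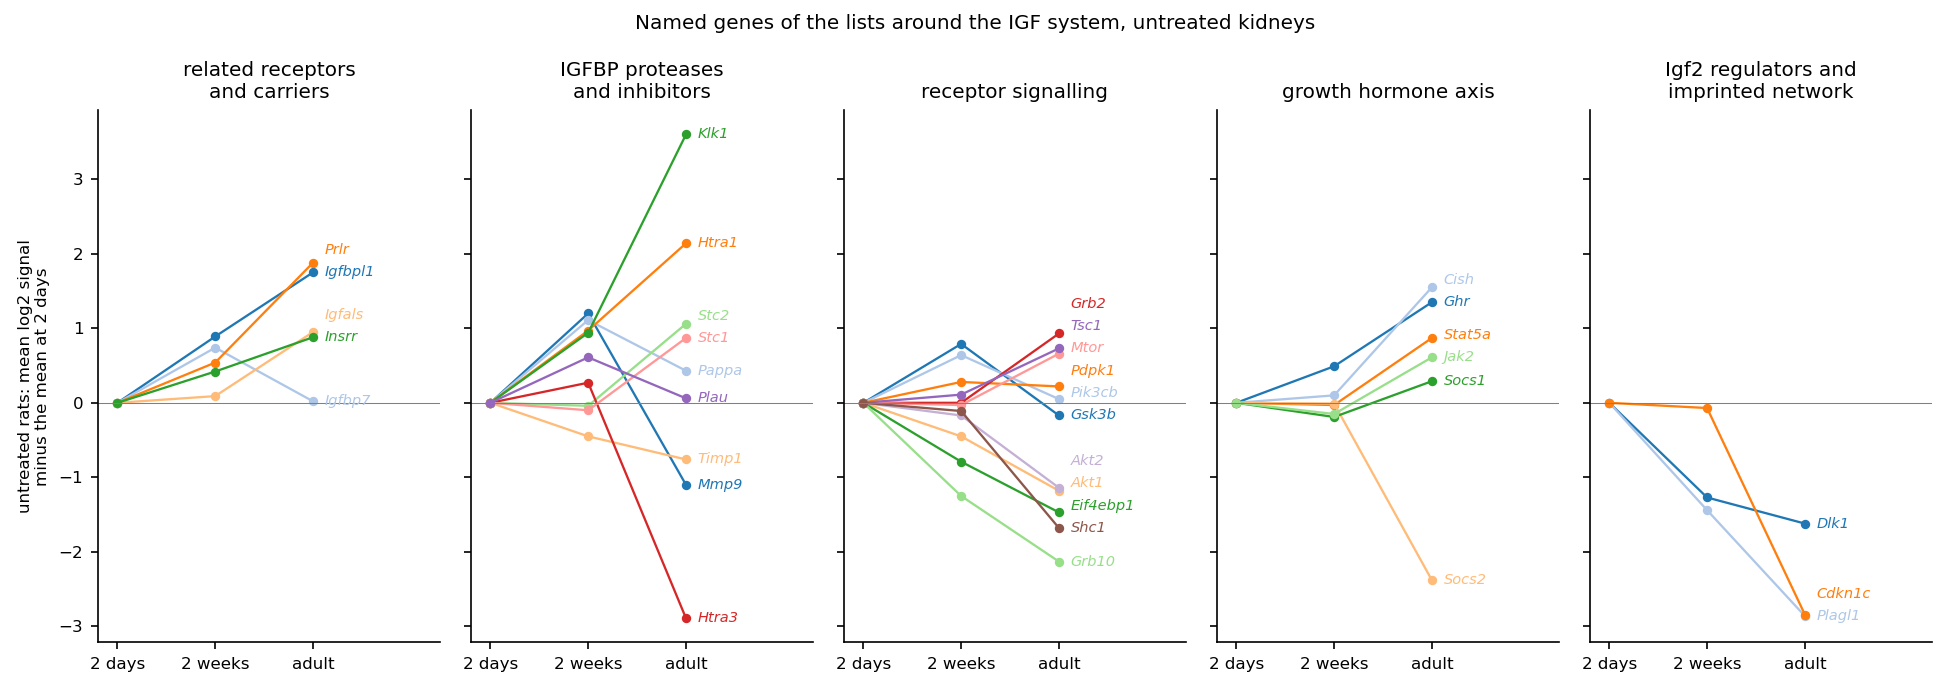
Mean log2 signal of untreated rats minus the 2-day mean (vertical axis) at 2 days, 2 weeks and adult age (horizontal axis) for the named genes of the 5 lists, 1 line per gene. Klk1 ends highest at 3.60, while Cdkn1c and Plagl1 end at -2.84 and -2.86. Htra3, Grb10 and Dlk1 are drawn at their measured means although they were below background at the lower end, and Mtor turned with arrays scaled to 1 median.

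The genes whose pattern was most like each member's were ranked by Pearson's r over the 12 group means, which share the age steps, the slides and the normalization. Igf2 was most like Mdk, the growth factor midkine (r = 0.998 over 12 groups and 0.982 over 59 arrays), then Myh10, a non-muscle myosin, and Akap12, a scaffold protein (both r = 0.998 over groups). Mdk had group means from 9.43 to 12.53. Igfbp1 was most like Cds1 (r = 0.997), Degs1 and Klk1 (both r = 0.996), and over the single arrays Klk1 had r = 0.968. Igfbp2 was most like Eif4ebp1 (r = 0.998 over groups and 0.917 over arrays). Igfbp3 was most like Agrp and Spast (both r = 0.988), Igf1r most like Prkcsh (r = 0.98) and Igfbp5 most like Pttg1ip (r = 0.959). Over the 59 arrays Pttg1ip kept r = 0.76 with Igfbp5. Igfbp6 was most like Cdk16, with r = 0.947 over groups and 0.049 over arrays, and then Rps23, with 0.946 and 0.754. Igfbp4 was most like Ier2, with 0.908 and 0.408.

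The effect of perinatal PDTC was the question of the series, and no member passed the test in any of the 13 comparisons of PDTC with untreated rats. At 2 days, with both sexes together, 0 of the 8 members were called, against 0% of the 13163 probes tested, of which 2085 had an unadjusted p under 0.05. The count was also 0 of 8 at 2 weeks (0% of 13360 probes) and in adults (0% of 11701 probes), with 697 and 668 probes under 0.05 unadjusted. Over the 13 comparisons of 8 members each, 12 tests had an unadjusted p under 0.05. Over all probes the number ran from 186 of 13360 to 2085 of 13163 per comparison. These comparisons share rats, so 1 gene can count in several of them and the 12 are not independent. The median member difference at 2 days was -0.04, against -0.02 over all probes.

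Of the 8, Igf2 and Igfbp3 had the smallest p-values at 2 days. Igf2 was 13.45, 13.47, 13.30 and 13.20 in PDTC males and 13.21, 13.36, 13.20 and 13.08 in PDTC females. It was 13.07, 13.14, 13.14, 13.24 and 13.01 in untreated males and 13.09, 12.91, 13.01, 12.91 and 12.90 in untreated females. All 8 PDTC rats exceeded the untreated mean of their sex, although the groups overlapped. The difference was 0.24 ± 0.059 (95% interval 0.12 to 0.37, unadjusted p = 0.000629, limma adjusted p = 0.125). On the 5 slides that held both treatments it was -0.02 to 0.42 and was positive on 4. Leaving out untreated 2-day male 4, the highest untreated value, gave 0.26 with an adjusted p of 0.0395, and weighting arrays by their quality gave 0.27 with 0.038. The share of all probes that passed in these settings is not given here.

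Igfbp3 at 2 days was 10.81, 10.58, 10.26 and 9.94 in PDTC males and 10.27, 10.48, 10.24 and 10.59 in PDTC females. It was 9.90, 10.24, 10.13, 10.04 and 9.75 in untreated males and 10.07, 10.32, 10.16, 9.92 and 9.81 in untreated females. Of the 8 PDTC rats 7 exceeded the untreated mean of their sex, and the groups overlapped. The difference was 0.36 ± 0.11 (95% interval 0.13 to 0.59, unadjusted p = 0.00447, limma adjusted p = 0.149), and it was positive on 5 of 5 slides, from 0.11 to 0.49. With array quality weights it was 0.40 with an adjusted p of 0.0408, and the share of all probes that passed is again not given here. The other 6 members differed by -0.11 to 0.05 at 2 days.

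Tissue markers were also compared in the same rats, where none of the 13163 probes passed the test. The median of all probes was -0.02, and the share of all probes that were higher is not given here. At 2 days 8 of 8 stroma markers were higher in PDTC rats, without passing the test (median 0.31), and their summed log2 level was 14.75 to 15.35 in PDTC against 14.52 to 15.05 in untreated rats, with all 8 above background in every rat. Of the fat markers 5 of 5 tested were higher (median 0.39), with a summed level of 9.08 to 12.10 in PDTC and 9.01 to 11.77 in untreated rats. Between 3 and 5 of the 6 fat markers were above background on an array of these groups. Mean proximal tubule levels were 9.99 in PDTC against 10.38 in untreated males, and 10.27 against 10.20 in females. Podocyte means were 9.39 against 9.20 in males and 9.31 against 9.21 in females. Slide 6 held 3 untreated and no PDTC 2-day pups. The part of these markers and of slide 6 in the Igf2 and Igfbp3 values was not tested, beyond the within-slide values above.

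**Figure D4:**
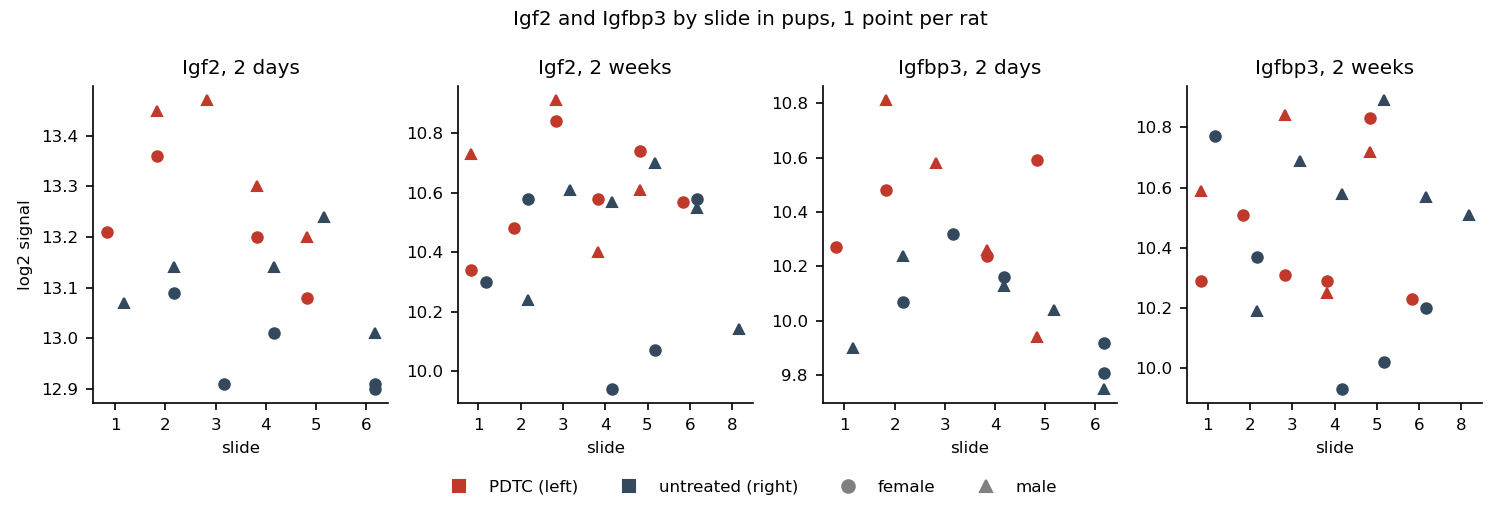
Log2 signal (vertical axis) of Igf2 and Igfbp3 in each pup by slide (horizontal axis) at 2 days and 2 weeks, PDTC rats in red left of untreated rats in blue, circles female and triangles male. On slide 6 the 3 untreated 2-day pups, with no PDTC pup beside them, are among the lowest for both genes.

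At 2 weeks the Igf2 difference had the same size. Igf2 was 10.73, 10.91, 10.40 and 10.61 in the 4 PDTC males, and 10.34 to 10.84 (median 10.58) in the 6 PDTC females. It was 10.14 to 10.70 (median 10.56) in the 6 untreated males, and 10.30, 10.58, 9.94, 10.07 and 10.58 in the 5 untreated females. The groups overlapped, with 9 of 10 PDTC rats above the untreated mean of their sex. The difference was 0.25 ± 0.10 (95% interval 0.04 to 0.46, unadjusted p = 0.0222, limma adjusted p = 0.825) and was positive on 6 of 6 slides, from 0.07 to 0.33. The test of a change in the Igf2 difference between the pup ages gave 0.00 (adjusted p = 1).

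The measured Igf1r difference at 2 weeks had opposite signs in the sexes, without passing the test in either. It was 9.11, 9.11, 9.05 and 8.90 in PDTC males, and 9.12 to 9.37 in the 6 untreated males, without overlap. In females it was 9.14 to 9.28 in the 6 PDTC rats, and 9.22, 9.02, 8.95, 9.06 and 8.86 in the 5 untreated rats. The PDTC difference was 0.21 ± 0.081 in females and -0.21 ± 0.087 in males (limma adjusted p = 0.999 and 0.906). With arrays scaled to 1 median the male difference was 0.09, which put it at -0.12 against the median of all probes. The female difference was 0.18 to 0.28 over the other settings, so the opposite signs were not kept under that scaling. The female minus male difference of these effects was 0.42 ± 0.12 (unadjusted p = 0.00197), and its adjusted p was 1, with 0% of probes called.

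In adults no member stood out from the spread. Igfbp1 had the largest difference, 0.44 ± 0.29 (adjusted p = 0.799). Its values in PDTC males were 13.20, 14.03, 13.82, 13.04 and 13.23, and in PDTC females 12.80, 12.35, 13.15, 12.95 and 13.87. In untreated males they were 12.96, 13.24, 11.81, 13.56 and 13.06, and in untreated females 14.05, 12.98, 12.62, 12.47 and 11.26. The ranges overlapped, with the lowest untreated values below every PDTC value and the highest untreated value, 14.05, above every PDTC value. On the 4 slides the difference ran from -0.22 to 1.23. Igf2 differed by -0.13 in adults (adjusted p = 0.905). In the gene lists the smallest p-values at 2 days belonged to Pappa, at 1.02 ± 0.28 (adjusted p = 0.138), and to Rps6kb1, the S6 kinase, at 0.21 ± 0.064 (adjusted p = 0.149).

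**Figure D5:**
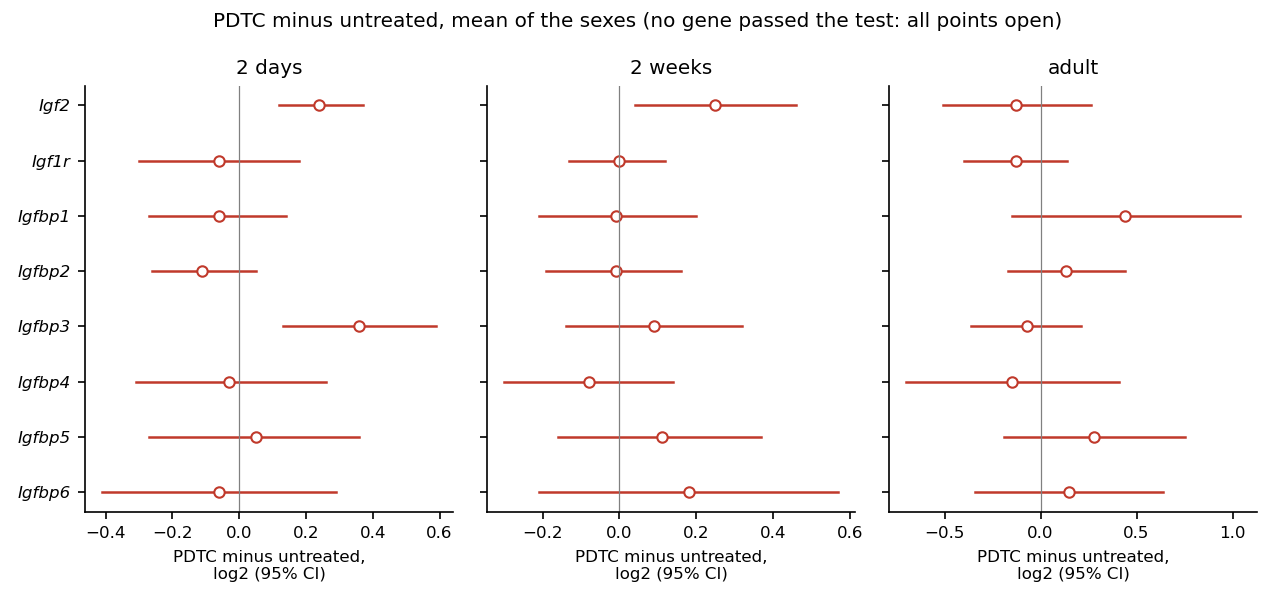
PDTC minus untreated log2 difference (horizontal axis, mean of the sexes with 95% interval) for the 8 genes at 2 days, 2 weeks and adult age, all open because none passed the test. Igf2 lies at 0.24 and 0.25 at the pup ages and at -0.13 in adults, and Igfbp3 at 0.36 at 2 days.

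Between the sexes, no member passed the test in any of 6 comparisons, and 5 of 48 member tests had an unadjusted p under 0.05. Over all probes the number under 0.05 ran from 80 of 13360 to 1615 of 11701 per comparison. Over all probes 0.752% were called in PDTC adults and 1.34% in untreated adults, and 0% at either pup age in either treatment. Igfbp5 in adults had the smallest member p-value. It was 5.59, 5.19, 5.01, 4.81 and 4.66 in PDTC females, and 6.63, 5.22, 6.72, 6.15 and 6.09 in PDTC males. The female values were not well above background on any of 5 arrays, the male values were on 4 of 5, and the ranges overlapped through a single male. The measured difference was -1.11 ± 0.32 (unadjusted p = 0.00221, limma adjusted p = 0.126). As a bound on the measured means it was 1.24-fold lower in females, which leaves out the spread between rats, and the difference did not pass the test.

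Untreated adults gave a smaller difference in the same direction. Igfbp5 was 4.84, 4.99, 5.05, 5.13 and 4.88 in untreated females, above background on 0 of 5 arrays, and 5.24, 6.03, 6.65, 4.57 and 5.89 in untreated males, above background on 3 of 5. The difference was -0.70 ± 0.32 (adjusted p = 0.43), and its bound gave no fold. Leaving out PDTC adult male 2, the low male, gave -1.35 in PDTC rats with an adjusted p of 0.0247. Females were also the older adults by the labels, as given above. In the gene lists around the members, 1 gene differed between the sexes in each adult treatment. Stc2, an inhibitor of PAPP-A, was 1.66 ± 0.33 higher in PDTC females (adjusted p = 0.0137), and Htra1 had a female minus male difference of -0.92 ± 0.17 in untreated rats (adjusted p = 0.00556).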

How the data were processed

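Kidney RNA was extracted with TRIzol and a column kit, amplified with Illumina's TotalPrep reagents and read on rat BeadChips, per the labels' protocols. For each array the deposited file gave a signal intensity and a detection p-value per probe, and a second table deposited by the authors gave log2 values normalized to a common distribution. The scanner software, and any background step before deposit, were not given in the sources used here. The platform annotation named 1 gene for 13793 probes, several for 0 and none for 8730.

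Intensities were corrected with normexp, with background taken as the median over the 50 probes of highest p-value, raised by 16, quantile-normalized over 59 arrays and put on the log2 scale. A probe was above background at a one-sided p under 0.05, and was tested if so on at least 4 arrays of its comparison. limma 3.58.1 in R 4.3.3 (lmFit, contrasts.fit, eBayes) was fitted to the arrays of the age, or of the pair of ages, compared, with the sexes weighted equally, and p-values were adjusted by Benjamini-Hochberg over all tested probes at 0.05. The analysis was checked on simulated data with known changes, for PDTC at 2 days, PDTC in adults, and untreated 2 weeks against 2 days. Changes of 0.5 log2 were recovered in 82%, 16% and 58% of cases, and changes of 1 log2 in 98%, 82% and 90%. False calls numbered 15, 5 and 11. The simulated noise was independent between probes and between rats, without slide or litter effects, and 50 probes were changed at each size. These shares hold for that setting and are not the chance of finding a change of that size in these data. Precision is limited by the number of arrays. Alternatives were arrays scaled to 1 median, no background correction, the deposited log2 values, no filter, array weights, slide as a term, 1 fit of all arrays and each rat left out.

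The members, the gene lists and the marker lists were chosen with earlier results of these data known. All members are named. From each gene list the rule took the genes past the threshold with the 3 largest differences per direction and comparison or, where none passed, the 2 with the smallest p, and the text gives part of these. Replicate numbers follow accession order and pair nothing.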

Additional observations from a re-analysis of the deposited data

Results flagged for a closer look

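In 3 of the 96 sets of rats of 1 group and gene, 1 rat lay far from the others by Dixon's test, which chance does in about 1 of 20 sets. Igfbp1 was 10.39 in PDTC 2-week female 1, with the next of the 6 rats at 9.89. Igfbp4 was 6.99 in PDTC adult female 5, with the next of the 5 rats at 5.24, near background. Igfbp6 was 8.02 in PDTC 2-week male 4, with the next of the 4 rats at 7.31.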

How the results depend on the processing

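No paired analysis was possible because the labels carry no replicate numbers and name no litters. The number of members called at each age step, both directions together, stayed within 1.5 times the reported count under every alternative run: 5 to 6 and 6 to 7 at 2 weeks against 2 days (PDTC, untreated), 5 to 6 and 4 to 6 in adults against 2 weeks, and 5 to 6 in both for adults against 2 days. By direction, scaling to 1 median took the members called in adults against 2 weeks to 1 higher and 4 lower in both treatments. Leaving out each rat gave 5 to 7 over all 6 age comparisons. Igf1r in adults against 2 days turned to -0.25 in PDTC and -0.09 in untreated rats with arrays scaled to 1 median, which moved the median of all probes to -0.62 and -0.53. For PDTC at 2 days the count of called members was 2 with array weights and 0 to 1 with each rat left out. For the sex difference in PDTC adults it was 1 in a fit of all arrays (Igfbp5, adjusted p = 0.00257), 1 with array weights (-1.20, adjusted p = 0.0132) and 0 to 1 with each rat left out. That difference was -0.50 (adjusted p = 0.151) without background correction and -0.51 (0.149) on the deposited log2 values, against -1.11. The shares of all probes called in these settings are not given here, so the calls cannot be read as particular to the members. The cause of these changes was not tested. Over its other settings, the Igf2 difference for PDTC at 2 days ran from 0.22 to 0.34 (adjusted p 0.038 to 0.771), and that of Igfbp3 from 0.29 to 0.53 (0.0408 to 0.347). Leaving out PDTC adult male 2 brought adult Igfbp6 against 2 weeks (-0.47, adjusted p = 0.0376) and adult Igfbp5 against 2 days (0.45, adjusted p = 0.0187) past the threshold in PDTC rats. Slide as a fixed term could not be fitted for untreated adults against 2 days or for either adult step in PDTC rats, since no slide holds both ages. Igfbp4 and Igfbp5 lie near background, which limits any fold for them.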
